A study of Mus musculus with 9 samples.

Results

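Acinar cells of the pancreas make the digestive enzymes that the organ pours into the gut, and the transcripts described here are those of 36 such enzyme and secretory genes, chosen by name from knowledge of the acinar cell. Of these, 33 have a row in the table of 18541 genes, 6 of them under an older symbol (Cela1, Cela2a, Cela3b, Zg16, Rbpjl and Bhlha15) found through the Entrez number. Prss1, Try4 and Spink3 were not analysed here. RNA came from dorsal pancreatic epithelium dissected by hand from mouse embryos at e12.5 (embryonic day), and it was measured with Cy3 label on 1-colour Agilent arrays. Each of the 9 samples held RNA of 3 dorsal pancreata, and each of the 3 genotypes had 3 samples.

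The Sox9 heterozygotes carried Sox9fl/+ and the Foxa3-Cre transgene, a Cre recombinase driven by regulatory sequence of Foxa3, which is active in endoderm, so that 1 Sox9 allele was to be deleted in the developing pancreas. The Pdx1 heterozygotes (Pdx1-/+) carried the Pdx1LacZko allele, and the labels name no Cre for them. The double heterozygotes carried Sox9fl/+, Foxa3-Cre and Pdx1-/+. Wild-type embryos were not analysed here, so every value below sets one mutant genotype against another. The Sox9 and the Pdx1 heterozygotes differ at both loci and in the transgene, and the effects of these cannot be told apart. Whether a value is high in one of them or low in the other cannot be told apart either.

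In the mature gland most of these enzymes are stored in zymogen granules as inactive precursors and are released on a meal. Their genes are switched on by the PTF1 complex, in which Ptf1a and a common E-protein bind together with Rbpj early and with the acinar form Rbpjl later, and the factor Bhlha15 (Mist1) then builds up the granule and secretion machinery. In the mouse bud Cpa1 marks multipotent tip cells well before the other enzymes are abundant. At this stage Pdx1 and Sox9 are factors of pancreatic progenitors.

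Expression is given as the authors' normalized intensity on a linear scale, with 1 probe per gene, and intensities of different genes are not set against each other. Sample medians lay between 347 and 353, and no sample repeated another. The groups were compared with limma on the log2 intensities of all 9 samples, with Benjamini-Hochberg adjustment over all 18541 genes, and a gene is called where its adjusted p lies under 0.05. The third double heterozygote is titled with the numbers 3 and 4 together. It correlated with the other samples at 0.980 to 0.992 over all genes, and the lowest of these values, shared with the first Sox9 heterozygote, was the lowest in the set. The design text calls the genotypes littermates and the samples biological replicates, without tying a sample to a litter. A lower transcript level in whole epithelium can reflect fewer cells of a type or less RNA per cell, and these cannot be told apart.

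The manipulated genes come first as a check of the labels. Sox9 intensity was 294, 294 and 325 in the Sox9 heterozygotes, 239, 198 and 234 in the Pdx1 heterozygotes and 292, 328 and 381 in the double heterozygotes. Sox9 was thus not lower where 1 Sox9 allele was to be deleted, against the direction that its label gives, so the groups named here are the samples labelled as such. Pdx1 was 1316, 1573 and 1502 in the samples labelled Sox9 heterozygous, 1132, 1098 and 1080 in those labelled Pdx1 heterozygous and 1203, 1143 and 1352 in those labelled double heterozygous. The Pdx1 heterozygotes lay below the Sox9 heterozygotes in every sample, and the double heterozygotes overlapped the Sox9 heterozygotes. The position of either probe relative to the altered part of its gene is unknown here, so neither value can be read as a test of the allele.

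The widest separation of the acinar genes was between the samples labelled Sox9 and Pdx1 heterozygous. In 28 of the 33 genes the mean was higher in the Sox9 heterozygotes, against 50.1% of all genes, and the median log2 ratio of Sox9 over Pdx1 heterozygotes was 0.39, beside 0.00 over all genes. All 3 Sox9 heterozygous samples lay above all 3 Pdx1 heterozygous samples in 15 of 33 acinar genes (45.5%), against 6.54% of all genes, and in no acinar gene did they all lie below, against 6.04%. At least 1.5-fold higher were 11 of 33, against 0.69% of all genes, and 1 (Cuzd1) was at least 1.5-fold lower, against 0.378%. At an unadjusted limma p under 0.05, 17 of 33 were higher (51.5%), against 3.57% of all genes, and 0 lower, against 2.72%. After adjustment over all genes Cpb1 and Cela1 were called, 2 of 33, against 0.151% of all genes called in this direction, and no acinar gene was called lower, against 0.0809%. The members were listed with earlier results of these data known, so these shares describe the list and are not a test of it.

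**Figure D1:**
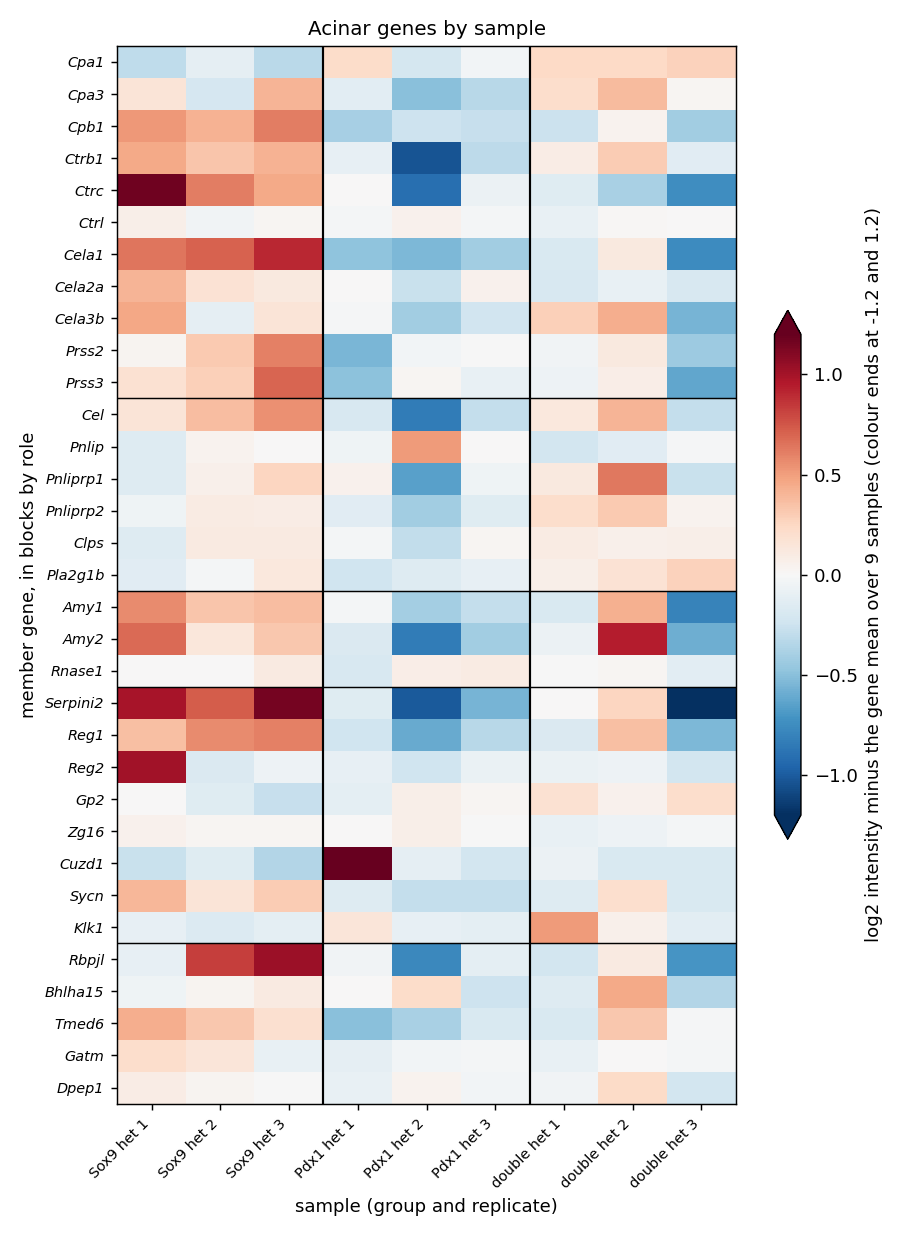
Each cell shows the log2 intensity of 1 acinar gene in 1 sample minus the mean of that gene over the 9 samples, with genes in blocks by role (proteases, lipid digestion, amylase and ribonuclease, other secreted and granule proteins, regulators and cell-bound proteins) and vertical lines between genotypes. The 3 Sox9 heterozygous samples are above the gene mean for most of the proteases, and the third double heterozygote is the lowest of its group in 22 of 33 genes.

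Both genes that passed the adjusted test encode digestive proteases. Cpb1 encodes carboxypeptidase B1, which trims basic residues from the ends of peptides. Its intensity was 167, 155 and 178 in the Sox9 heterozygotes, 88, 98 and 96 in the Pdx1 heterozygotes and 97, 120 and 87 in the double heterozygotes. All Sox9 heterozygous samples were above all the others, and the Pdx1 and double heterozygotes overlapped. Sox9 over Pdx1 heterozygotes gave a log2 ratio of 0.83 ± 0.12 (SE, n = 3 samples a group, limma adjusted p = 0.0288), a 1.77-fold difference. The Cpb1 probe is dim: its mean log2 intensity falls in the lowest 25% of all genes, a limit that corresponds to an intensity of 119.

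Cela1 encodes a chymotrypsin-like elastase. Its intensity was 1338, 1403 and 1610 in the Sox9 heterozygotes, 617, 590 and 642 in the Pdx1 heterozygotes and 759, 935 and 511 in the double heterozygotes. The Sox9 heterozygotes stood apart from both other genotypes, which overlapped because 1 double heterozygote lay below every Pdx1 heterozygote. Sox9 over Pdx1 heterozygotes gave a log2 ratio of 1.23 ± 0.19 (SE, n = 3 samples a group, limma adjusted p = 0.0407), a 2.35-fold difference. The calls of Cpb1 and Cela1 were kept when the second or the third double heterozygote was left out. They were lost when any of the 3 Sox9 heterozygotes, any of the 3 Pdx1 heterozygotes or the first double heterozygote was left out, with adjusted p between 0.0587 and 0.137 for Cpb1 and between 0.076 and 0.184 for Cela1, while the log2 ratios stayed between 0.78 and 0.88 and between 1.15 and 1.29. Fewer samples enter each of those fits.

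The 250 bases before the start of 3 genes that were lower in Pdx1 than in Sox9 heterozygotes, and of Cpa1, whose order was different, are printed here because PTF1 is known to bind a paired E-box and TC-box near acinar genes. The sequences are those of RefSeq on build GRCm38.p6, written from 5′ to 3′ on the strand of the gene, and capitals mark matches to the E-box CACCTG or the TC-box TTTCCC on either strand.
Cela1 (chr15:100687921-100688170, minus strand): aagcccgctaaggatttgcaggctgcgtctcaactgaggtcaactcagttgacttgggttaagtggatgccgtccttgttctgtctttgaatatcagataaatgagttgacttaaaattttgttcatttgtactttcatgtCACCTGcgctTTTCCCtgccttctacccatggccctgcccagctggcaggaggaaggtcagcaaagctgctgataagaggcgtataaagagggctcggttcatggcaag
Cpb1 (chr3:20275734-20275983, minus strand): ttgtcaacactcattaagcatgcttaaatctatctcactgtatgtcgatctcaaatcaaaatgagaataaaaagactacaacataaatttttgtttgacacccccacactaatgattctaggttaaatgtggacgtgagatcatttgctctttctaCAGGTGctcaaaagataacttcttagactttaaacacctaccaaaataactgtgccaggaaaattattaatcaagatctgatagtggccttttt
Serpini2 (chr3:75270079-75270328, minus strand): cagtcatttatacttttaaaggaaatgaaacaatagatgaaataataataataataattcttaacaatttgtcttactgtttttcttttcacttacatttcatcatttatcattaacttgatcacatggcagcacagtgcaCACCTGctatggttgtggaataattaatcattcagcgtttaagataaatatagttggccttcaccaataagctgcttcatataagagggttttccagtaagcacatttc
Cpa1 (chr6:30638968-30639217, plus strand): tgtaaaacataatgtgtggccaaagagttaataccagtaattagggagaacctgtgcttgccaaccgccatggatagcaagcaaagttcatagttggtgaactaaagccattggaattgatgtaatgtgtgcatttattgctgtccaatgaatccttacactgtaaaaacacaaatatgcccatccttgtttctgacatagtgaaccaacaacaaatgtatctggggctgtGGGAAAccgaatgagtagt
In Cela1 the E-box begins 109 bases and the TC-box 99 bases before the start. Cpb1 and Serpini2 hold an E-box, which begins 94 and 109 bases before the start, and no TC-box in this window, while Cpa1 holds a TC-box 19 bases before the start and no E-box.

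A promoter window was found for 29 of the 33 acinar genes. The E-box CACCTG was present on either strand in 16 of 29 (55.2%), against 17.2% of all 32851 windows of the same length and 19.4% of genes. The 16 were Bhlha15, Cel, Cela1, Cela2a, Cela3b, Cpb1, Ctrl, Gatm, Klk1, Pnliprp2, Prss2, Prss3, Rbpjl, Reg2, Serpini2 and Tmed6. Among them Bhlha15, Cela3b, Ctrl, Gatm, Klk1, Rbpjl and Reg2 had overlapping Sox9 and Pdx1 heterozygotes. Reg1, Ctrb1, Amy1 and Sycn, higher in every Sox9 than in every Pdx1 heterozygote, held no E-box in this window. The TC-box was present in 7 of 29 (24.1%), against 21.9% of all windows and 24.4% of genes. Both were present in Cel, Cela1, Cela2a and Prss2, 4 of 29 (13.8%), against 3.61% of windows and 4.2% of genes. The matches are letters in a window and were not tested as binding sites, and their relation to the genotypes was not tested.

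**Figure D2:**
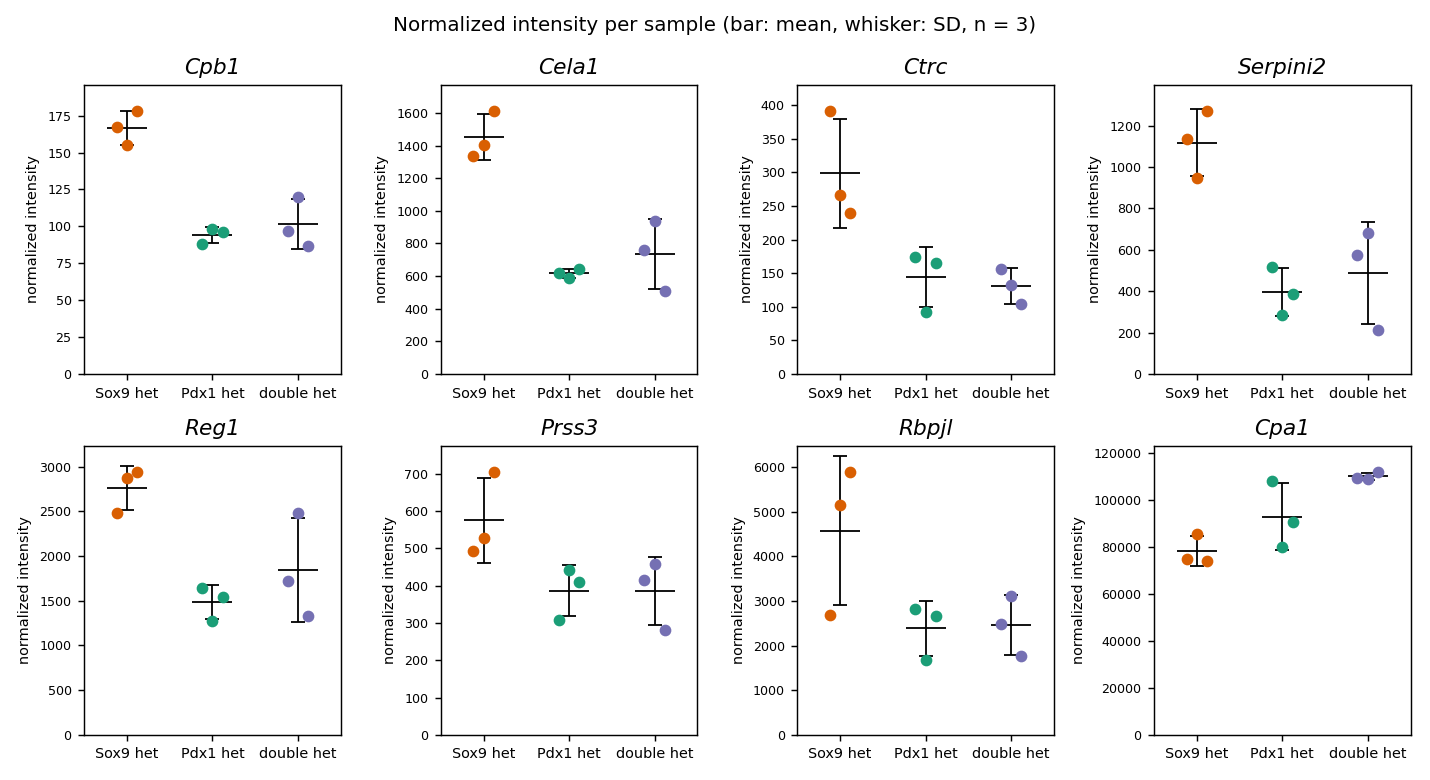
Normalized intensity (vertical axes from 0) of 8 acinar genes, with a point for each sample, a bar for the mean and a whisker for the SD (n = 3 samples a group). The Sox9 heterozygotes lie above the Pdx1 heterozygotes without overlap in Cpb1, Cela1, Ctrc, Serpini2, Reg1 and Prss3, and overlap them in Rbpjl, while Cpa1 is highest in the double heterozygotes.

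Among the other proteases, Ctrc encodes chymotrypsin C, which regulates the activation of trypsinogen. Its intensity was 391, 266 and 239 in the Sox9, 174, 93 and 166 in the Pdx1 and 157, 133 and 104 in the double heterozygotes. Every Sox9 heterozygote lay above every other sample, with a log2 ratio over the Pdx1 heterozygotes of 1.07 ± 0.27 (SE, n = 3 samples a group, limma adjusted p = 0.294). Ctrb1, which encodes chymotrypsinogen B, was 1896, 1734 and 1840 in the Sox9, 1285, 671 and 1107 in the Pdx1 and 1471, 1701 and 1253 in the double heterozygotes. Its groups fell in the order Sox9, double, Pdx1, and 1 double heterozygote lay below the highest Pdx1 heterozygote. The log2 ratio of Sox9 over Pdx1 heterozygotes was 0.89 ± 0.21 (SE, n = 3 samples a group, limma adjusted p = 0.259).

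The trypsinogen genes Prss2 and Prss3, whose products activate the other zymogens, were both highest in the Sox9 heterozygotes. Prss2 was 277, 337 and 413 in the Sox9, 185, 265 and 270 in the Pdx1 and 263, 295 and 201 in the double heterozygotes. Prss3 was 493, 528 and 705, then 309, 441 and 409, then 416, 458 and 282 in the same order. In both genes the Sox9 heterozygotes lay above the Pdx1 heterozygotes without overlap, by log2 ratios of 0.51 (limma adjusted p = 0.698) and 0.57 (adjusted p = 0.66). Trypsinogens are near-identical paralogs, as are the amylases, and the Reg genes are related to each other, so probes of a family may share signal. The elastase gene Cela2a, at a dim probe, was 120, 102 and 98, then 91, 75 and 94, then 79, 85 and 79. Cela3b, an elastase gene with overlapping groups, had a log2 ratio of 0.39 and Ctrl, which encodes a chymotrypsin-like enzyme, of 0.01. In all, 10 of 11 proteases had a higher mean log2 intensity in Sox9 than in Pdx1 heterozygotes, against 50.1% of all genes, and 7 of the 11 did so without overlap, against 6.54% of all genes.

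Cpa1 was the protease that went the other way. It encodes carboxypeptidase A1, and its intensity was 75082, 85744 and 74082 in the Sox9, 108215, 80271 and 90628 in the Pdx1 and 109553, 108986 and 112072 in the double heterozygotes. The double heterozygotes lay above all the other samples, though only just above the first Pdx1 heterozygote, and the single heterozygotes overlapped. Double over Sox9 heterozygotes gave a log2 ratio of 0.50 ± 0.11 (SE, n = 3 samples a group, limma adjusted p = 0.0938), with an FDR of 3.42e-04 in the authors' deposited table. Cpa3, a carboxypeptidase gene best known from mast cells, was 184, 144 and 219, then 152, 117 and 131, then 191, 215 and 168. Its double heterozygotes lay above the Pdx1 heterozygotes, at a log2 ratio of 0.52 ± 0.16 (SE, n = 3 samples a group, limma adjusted p = 0.202). The 9 other mast cell and basophil markers in the table had a mean log2 intensity of 7.47 to 7.57 in the Pdx1, 7.58 to 7.66 in the double and 7.62 to 7.76 in the Sox9 heterozygotes. The mast cell protease genes Mcpt1, Mcpt4 and Tpsb2 were dim, between 68 and 122 in every sample. Cma1, also a mast cell protease gene, was brighter, between 240 and 325. Kit was higher in every double than in every Pdx1 heterozygote, as Cpa3 was, against 11.6% of all genes. Hdc and Gata2 were higher without overlap in the Sox9 than in the Pdx1 heterozygotes, against 6.54% of all genes. The rest of the 9 overlapped in both of these comparisons. The part of mast cells in the Cpa3 values was not tested.

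Genes of lipid digestion were less uniform. Cel, which encodes bile salt-activated lipase, was 2548, 2948 and 3331 in the Sox9, 1999, 1275 and 1875 in the Pdx1 and 2491, 3021 and 1876 in the double heterozygotes. The Sox9 heterozygotes lay above the Pdx1 heterozygotes without overlap (log2 ratio 0.80 ± 0.21, SE, n = 3 samples a group, limma adjusted p = 0.333), and the double heterozygotes overlapped both. Pnliprp2, which encodes a galactolipase related to pancreatic lipase, was 205, 228 and 226, then 193, 159 and 192, then 247, 265 and 219. Pla2g1b, which encodes the secreted phospholipase of pancreatic juice and has a dim probe, was 87, 94 and 104, then 81, 86 and 89, then 100, 108 and 116. Both were higher in every double than in every Pdx1 heterozygote. Pnliprp1, a lipase-related gene, ranged from 11025 to 26943 with overlapping groups. Clps, which encodes the lipase cofactor colipase, ranged from 9537 to 12643, and its log2 ratios lay between 0.06 and 0.17 in the 3 comparisons. Pnlip, the gene of pancreatic lipase itself, stayed between 64 and 106, at the dim end of the array.

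Both amylase genes were highest, by their means, in the Sox9 heterozygotes. Amy1 was 588, 498 and 512 in the Sox9, 389, 299 and 324 in the Pdx1 and 350, 533 and 228 in the double heterozygotes. Amy2, the pancreatic amylase, was 351, 242 and 275, then 195, 123 and 165, then 209, 422 and 146. For both, the Sox9 heterozygotes lay above the Pdx1 heterozygotes (log2 ratios 0.66 and 0.85, limma adjusted p = 0.69 and 0.71), and the double heterozygotes spread across both groups. Rnase1, which encodes pancreatic ribonuclease, stayed between 81 and 100.

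Among other secreted and granule genes, Serpini2, which encodes pancpin, a serpin of the pancreas, had the largest log2 ratio of the 33 in both comparisons with the Sox9 heterozygotes. It was 1135, 946 and 1269 in the Sox9, 515, 284 and 388 in the Pdx1 and 574, 682 and 213 in the double heterozygotes. The Sox9 heterozygotes lay above all the other samples, and Sox9 over Pdx1 heterozygotes gave a log2 ratio of 1.53 ± 0.39 (SE, n = 3 samples a group, limma adjusted p = 0.312). Reg1, which encodes a C-type lectin of pancreatic juice, was 2484, 2870 and 2939, then 1643, 1270 and 1542, then 1717, 2482 and 1333. Its Sox9 heterozygotes lay above the other samples by as little as 2484 against 2482, and its log2 ratio over the Pdx1 heterozygotes was 0.90 ± 0.20 (SE, n = 3 samples a group, limma adjusted p = 0.209). Sycn, which encodes the granule protein syncollin, was 521, 438 and 488, then 355, 323 and 323, then 353, 454 and 347, a log2 ratio of 0.53 for Sox9 over Pdx1 heterozygotes (limma adjusted p = 0.197).

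Several granule genes were near the dim end of the array. Gp2, the main granule membrane glycoprotein gene, was 107, 96 and 88 in the Sox9, 98, 112 and 108 in the Pdx1 and 121, 110 and 123 in the double heterozygotes. Its double heterozygotes lay above its Sox9 heterozygotes, by as little as 110 against 107 (log2 ratio 0.29, limma adjusted p = 0.12). Zg16, a lectin gene of granules, stayed between 83 and 93, and the kallikrein gene Klk1 between 83 and 133. Cuzd1, a granule membrane gene, was 248 in the first Pdx1 heterozygote and between 67 and 81 in the other 8 samples. Reg2, a relative of Reg1, was 163 in the first Sox9 heterozygote and between 69 and 78 elsewhere. A single sample therefore sets the group means of Cuzd1 and Reg2. In all, 11 of the 33 acinar genes had a mean log2 intensity in the lowest 25% of all genes, and 22 passed that filter.

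The acinar regulators differed from each other. Rbpjl was 2694, 5145 and 5885 in the Sox9, 2807, 1686 and 2660 in the Pdx1 and 2482, 3117 and 1765 in the double heterozygotes. The first Sox9 heterozygote lay among the other genotypes, and the other Sox9 heterozygotes stood above all samples of the other genotypes. The log2 ratio of Sox9 over Pdx1 heterozygotes was 0.90 ± 0.32 (SE, n = 3 samples a group, limma adjusted p = 0.639). Bhlha15 was 150, 159 and 168, then 156, 182 and 131, then 140, 213 and 122, with log2 ratios between -0.05 and 0.04. Tmed6, a gene of the family that carries cargo out of the endoplasmic reticulum, was 1058, 981 and 891, then 553, 595 and 688, then 689, 978 and 772. All its Sox9 heterozygotes lay above the Pdx1 heterozygotes, and so did its double heterozygotes, by as little as 689 against 688. Gatm, which encodes an enzyme of creatine synthesis, and the dipeptidase gene Dpep1 had log2 ratios between -0.12 and 0.14.

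**Figure D3:**
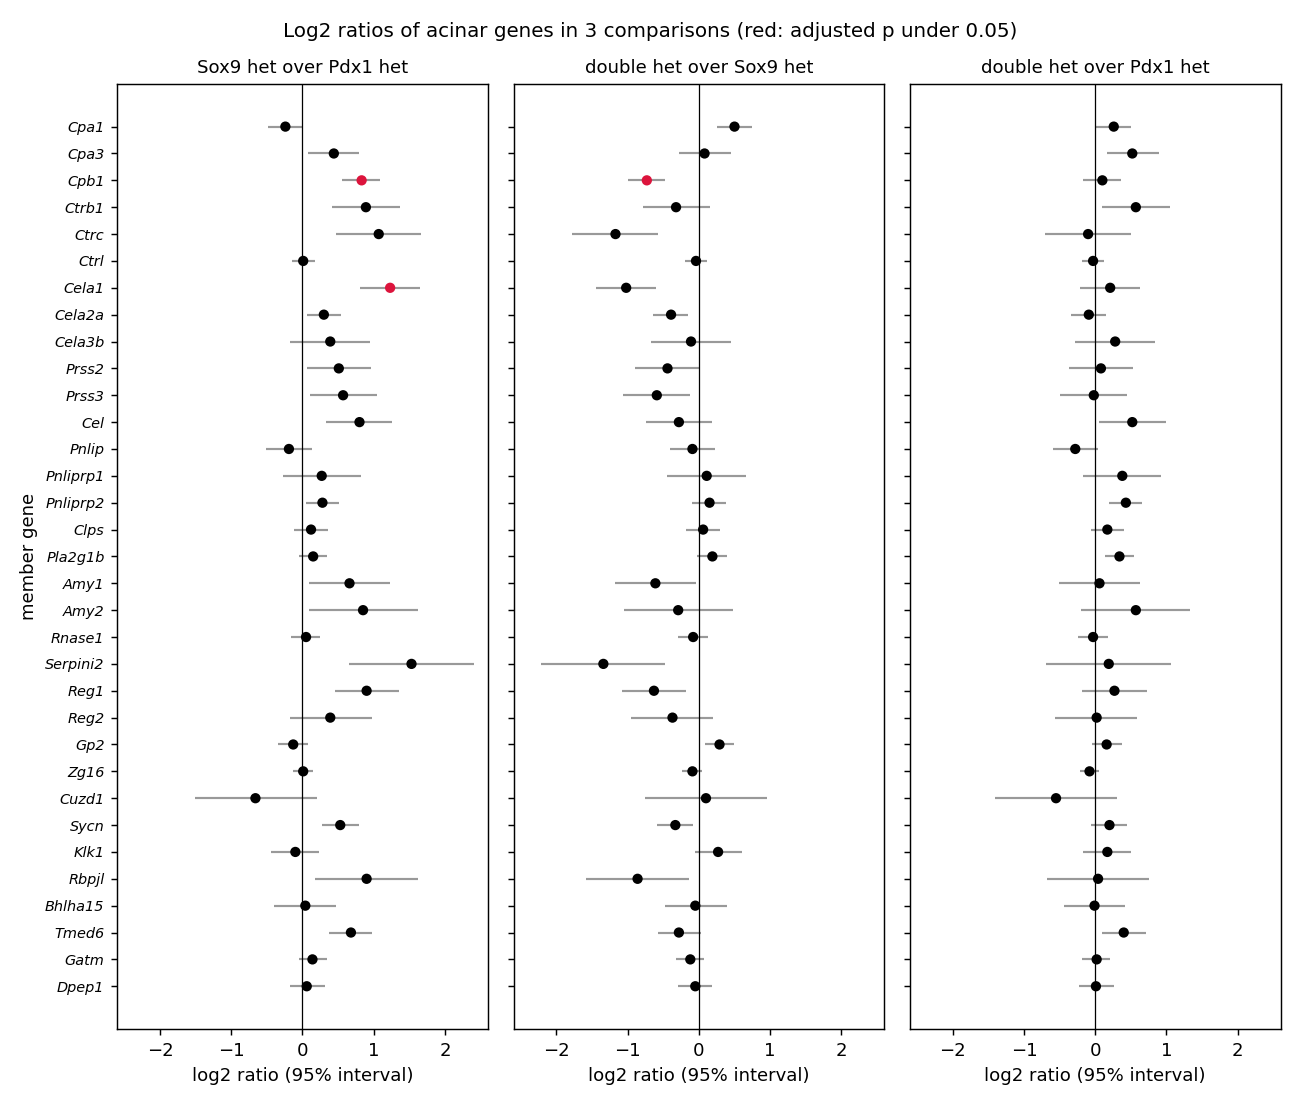
Log2 ratios of the 33 acinar genes (points) with 95% intervals from limma (lines) for Sox9 over Pdx1, double over Sox9 and double over Pdx1 heterozygotes, 3 samples a group, with red points where the adjusted p is under 0.05. The 2 red points on the left are Cpb1 and Cela1, the red point in the middle is Cpb1, and the right panel has none.

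Double were next compared with Sox9 heterozygotes, which differ from them by the Pdx1 allele. In 24 of 33 acinar genes the mean was lower in the double heterozygotes, against 50.1% of all genes, and the median log2 ratio was -0.12, beside -0.00 over all genes. Cpb1 was called lower, 1 of 33 against 0.216% of all genes, at a log2 ratio of -0.73 ± 0.12 (SE, n = 3 samples a group, limma adjusted p = 0.045). This call was kept without the second double heterozygote (adjusted p = 0.0213) and lost when any other sample was left out (adjusted p from 0.0756 to 0.153). No acinar gene was called higher, against 0.0917% of all genes. At an unadjusted limma p under 0.05, 10 were lower, against 13.2% of all genes, and 2 were higher, against 14.2%.

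By size, 8 of 33 acinar genes were at least 1.5-fold lower in the double than in the Sox9 heterozygotes, against 1.17% of all genes, and 0 at least 1.5-fold higher, against 1% of all genes. These were Serpini2 at a log2 ratio of -1.34, Ctrc at -1.17, Cela1 at -1.02, Rbpjl at -0.86, Cpb1 at -0.73, Reg1 at -0.63, Amy1 at -0.61 and Prss3 at -0.59. All 3 double heterozygotes lay below all 3 Sox9 heterozygotes in 9 of 33 (27.3%), against 16.7% of all genes. They lay above in Cpa1 and Gp2, 2 of 33 (6.06%), against 18.6%, and in 4 without the third double heterozygote, against 21.5%. The count of 9 depends on the second double heterozygote: without it 19 of 33 lay below, against 24.6% of all genes, and without the third it was again 9, against 18.8%. Without the third double heterozygote the log2 ratio of Prss3 was -0.38 and that of Serpini2 -0.83, and without the second that of Serpini2 was -1.66.

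In the authors' deposited table, with FDR under 0.05, 9 of 33 acinar genes were lower in this comparison (27.3%), against 11.1% of all genes, and 2 were higher, against 12% of all genes. The 9 were Cpb1, Ctrc, Cela1, Cela2a, Prss2, Prss3, Serpini2, Reg1 and Rbpjl, with FDR from 2.85e-07 for Ctrc to 0.0481 for Prss2 in the authors' deposited table. The 2 were Cpa1 and Gp2, the latter at an FDR of 0.0263 in the authors' deposited table. The log2 ratios of that table equal those of the sample intensities within 0.001 for all 18541 genes, whereas its FDR calls 4292 genes where limma on the 9 samples calls 57. The origin of that FDR is unknown here.

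Double heterozygotes differ from Pdx1 heterozygotes by the floxed Sox9 allele together with the Foxa3-Cre transgene. This comparison shares the double heterozygotes with the one before it. Here 24 of 33 acinar genes had a higher mean in the double heterozygotes, against 52.2% of all genes, and the median log2 ratio was 0.16, beside 0.01 over all genes. No acinar gene was called by limma, against 0.0378% of all genes called higher and 0.0701% called lower. At an unadjusted limma p under 0.05, 7 were higher (21.2%), against 7.77% of all genes, and 0 lower, against 8.38%. None reached 1.5-fold in either direction, against 0.69% of all genes higher and 0.814% lower.

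All 3 double heterozygotes lay above all 3 Pdx1 heterozygotes in Cpa1, Cpa3, Pnliprp2, Clps, Pla2g1b and Tmed6, 6 of 33 (18.2%), against 11.6% of all genes. They lay below in Zg16 alone among the 33, against 11.4%. Without the first or the second Pdx1 heterozygote they lay below in 3, against 18% and 14.4% of all genes. Without the third double heterozygote the first count was 14, against 15.5% of all genes. The largest log2 ratios above 0 were those of Ctrb1 at 0.57 ± 0.21 (SE, n = 3 samples a group, limma adjusted p = 0.258), Amy2 at 0.57 ± 0.34 (adjusted p = 0.408), Cpa3 at 0.52 and Cel at 0.52 ± 0.21 (adjusted p = 0.28). The ratio of Ctrb1 was 0.30 without the second Pdx1 heterozygote. The largest below 0 was that of Cuzd1 at -0.55, which rests on the 1 high Pdx1 heterozygote. With FDR under 0.05 in the authors' deposited table, 5 of 33 were higher, against 8.31% of all genes, and 0 lower, against 8.94%. These 5 were Cpa3, Ctrb1, Pnliprp2, Pla2g1b and Tmed6, with FDR from 0.00102 to 0.0164 in the authors' deposited table.

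For several genes that were high in the Sox9 heterozygotes, the double and the Pdx1 heterozygotes overlapped. The 95% interval of the log2 ratio of double over Pdx1 heterozygotes ran from -0.17 to 0.36 for Cpb1, from -0.21 to 0.63 for Cela1, from -0.70 to 0.50 for Ctrc, from -0.49 to 0.45 for Prss3 and from -0.69 to 1.06 for Serpini2. Since the comparisons with either single heterozygote share the double heterozygotes, the ratio of Sox9 over Pdx1 heterozygotes above is also the test of the difference between them, and Cpb1 and Cela1 passed it.

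**Figure D4:**
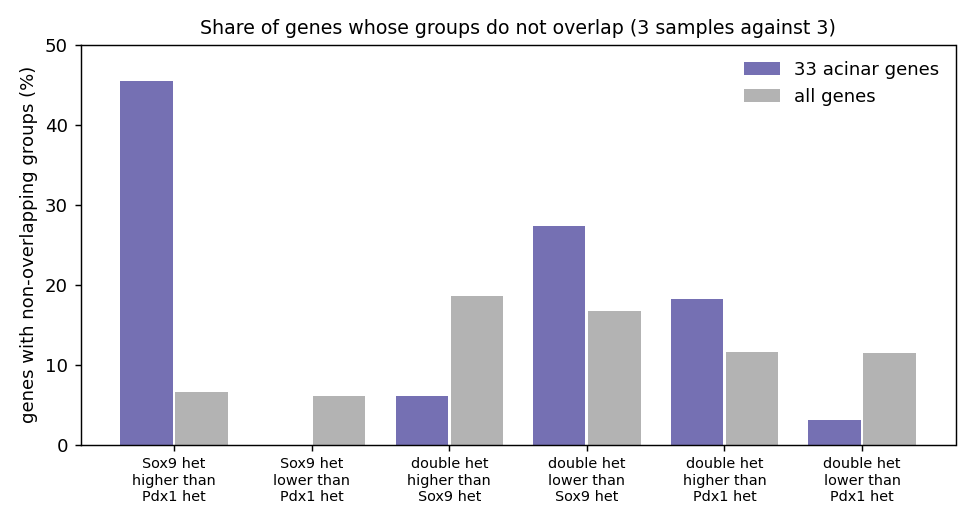
Percent of the 33 acinar genes (purple) and of all 18541 genes (grey) in which all 3 samples of a group lie above or below all 3 of the other, for each comparison and direction. The acinar share is 45.5% against 6.54% for Sox9 above Pdx1 heterozygotes and 27.3% against 16.7% for double below Sox9 heterozygotes.

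Samples of a genotype differed in the acinar genes as a group. Among the double heterozygotes the second sample was the highest in 24 of 33 acinar genes (72.7%), against 33.8% of all genes, and the third was the lowest in 22 (66.7%), against 41% of all genes. Among the Pdx1 heterozygotes the second sample was the lowest in 17 of 33 (51.5%), against 30.5% of all genes. The mean log2 intensity of the 33 genes was 8.83, 8.77 and 8.86 in the Sox9, 8.52, 8.29 and 8.44 in the Pdx1 and 8.58, 8.78 and 8.32 in the double heterozygotes. The double heterozygotes thus spanned nearly the whole range of both single genotypes, and the Sox9 heterozygotes lay close together.

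Transcription factors that act on acinar genes did not share the pattern of the enzymes. Of 18 listed regulators, all in the table, 2 were higher without overlap in Sox9 than in Pdx1 heterozygotes, against 6.54% of all genes. In the other direction 2 were lower, against 6.04%, and the median log2 ratio of the 18 was 0.02, beside 0.00 over all genes. Ptf1a, the founding factor of the acinar lineage, was 1608, 1895 and 1909 in the Sox9, 1809, 1555 and 1656 in the Pdx1 and 1604, 1929 and 2345 in the double heterozygotes, with overlapping groups. Spdef, an epithelial secretory factor, was called higher in the double than in the Sox9 heterozygotes, with 342, 324 and 388 against 219, 238 and 238 (log2 ratio 0.60, limma adjusted p = 0.0336). It was the only one of the 18 called in any of the 3 comparisons, beside 0.0917% of all genes called in this direction.

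Of 29 listed genes of the secretory pathway and zymogen granule, 27 are in the table and none was called by limma in the 3 comparisons. Of all genes, 0.0378% to 0.216% were called, by comparison and direction. The median log2 ratio of the 27 was 0.01 for Sox9 over Pdx1, 0.08 for double over Sox9 and 0.11 for double over Pdx1 heterozygotes. Of 19 further exocrine genes, 7 are in the table and none was called by limma, beside the same shares of all genes. Nupr1, a stress-response gene abundant in acinar cells, was 2610, 2523 and 2851 in the Sox9, 1444, 1184 and 1291 in the Pdx1 and 1409, 1929 and 1134 in the double heterozygotes (log2 ratio of Sox9 over Pdx1 heterozygotes 1.03, limma adjusted p = 0.0545).

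Markers of other cells in the dissected tissue were read beside these values. White blood cell markers were higher without overlap in Sox9 than in Pdx1 heterozygotes in 5 of 14, against 6.54% of all genes. Their mean log2 intensity was 9.01, 8.51 and 8.37 in the Sox9 heterozygotes. It was 8.19 to 8.46 in the Pdx1 and 8.42 to 8.62 in the double heterozygotes. Among these markers Prg2 was 2792, 228 and 56 in the Sox9 heterozygotes. The 10 endocrine markers had means of 10.16 to 10.40 in the Sox9, 10.12 to 10.28 in the Pdx1 and 9.78 to 10.09 in the double heterozygotes. The 11 liver markers had means of 9.98 to 10.15, 9.88 to 10.15 and 10.40 to 10.74 in the same order, and the 8 epithelial markers of 12.88 to 13.08, 13.04 to 13.19 and 13.13 to 13.30. Among the epithelial markers Krt19 was called higher in double than in Sox9 heterozygotes (log2 ratio 0.84, limma adjusted p = 0.0341). The 10 progenitor markers had means of 10.62 to 10.86, 10.54 to 10.63 and 10.64 to 10.93. Mnx1 among them was 607, 860 and 813 in the Sox9, 238, 284 and 212 in the Pdx1 and 250, 336 and 362 in the double heterozygotes. It was called for Sox9 over Pdx1 (log2 ratio 1.63, limma adjusted p = 0.0125) and double over Sox9 heterozygotes (-1.27, adjusted p = 0.0294). The 10 erythroid markers had means of 11.38 to 11.60 in the Sox9, 11.20 to 11.72 in the Pdx1 and 11.44, 11.34 and 12.12 in the double heterozygotes. Those of the 8 intestine markers were 7.32 to 7.46, then 7.40 to 7.44, then 7.54, 7.71 and 8.05. The 8 neuron and neural crest markers had means of 8.27 to 8.45, 8.07 to 8.29 and 7.80 to 7.86 in the same order. Over all samples the means of the 11 mesenchyme markers ran from 9.66 to 9.87. Those of the 7 endothelial markers ran from 9.11 to 9.41 and those of the 5 stomach markers from 6.45 to 6.75. The lowest intensity in the set was 32, so a value above 0 does not show that a marker was detected. The part of these cells in the acinar values was not tested.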

How the data were processed

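The authors deposited normalized intensities for 9 samples as whole numbers on a linear scale, with a column per sample. The submitters' processing notes name limma without a role, and no source used here describes the normalization. A second table holds the authors' deposited log2 ratios and FDR values (q-values), per the file headers. Its 9 columns of single arrays, which no label ties to a sample, were not used, and slide was not set as a block. Current symbols came from RefSeq through the Entrez number for 17183 genes.

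The log2 of the deposited intensities was fitted with limma 3.58.1 in R 4.3.3, with a mean per genotype, no pseudocount and no filter, a fit tested on simulated data. The number of arrays limits the precision. Members and lists were chosen with earlier results of these data known. By rule, sample values are given for acinar genes called by limma or by the authors' deposited FDR and for a few key enzymes and regulators. Those of Amy1, Sycn, Cuzd1, Reg2, Ptf1a and Mnx1 were added after they were seen. Alternatives were a replicate block, quantile normalization, median centring, a filter on dim probes, a variance trend, fits of 2 groups, other thresholds and each sample left out.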

Additional observations from a re-analysis of the deposited data

How the results depend on the processing

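None of the acinar values recomputed under the alternatives was reversed. Of all genes, double against Sox9 heterozygotes gave 57 calls, 92 with dim probes left out, 3 with only those groups in the fit, 5 at an adjusted p under 0.01, 463 under 0.1 and 4292 in the authors' deposited table. With a sample left out it gave 4 to 68. Double against Pdx1 heterozygotes gave 20 calls, then 43, 2, 2, 78 and 3199 in the same order, and 1 to 9 with a sample left out. Sox9 against Pdx1 heterozygotes gave 43 calls, 57 with dim probes left out and 59 with only those groups in the fit. It gave 5 under 0.01, 67 under 0.1 and 4 to 71 with a sample left out. With the replicate block it gave 18.

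Acinar genes called in double against Sox9 heterozygotes numbered 1, then 0 with the replicate block, with only the 2 groups or under 0.01, 4 under 0.1, 11 in the authors' deposited table and 0 to 2 with a sample left out. In double against Pdx1 heterozygotes they numbered 0, and 5 in the authors' deposited table. In Sox9 against Pdx1 heterozygotes they numbered 2, then 0 with the replicate block or under 0.01, 1 with dim probes left out, which removes Cpb1, 4 with only the 2 groups (Cela1, Cpb1, Reg1 and Serpini2) and 0 to 3 with a sample left out. With the replicate block the adjusted p of Cpb1 and Cela1 in this comparison was 0.0892 and 0.108, and that of Cpb1 in double against Sox9 heterozygotes was 0.0676, so each acinar call was lost. Same-numbered samples deviated from their group means with correlations of -0.177 to 0.239, so the numbers were not taken as pairs. Whether the numbers also mark slides, and the genotypes positions on a slide, was not tested.

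Counts of acinar genes whose groups do not overlap, with a sample left out (an alternative chosen after seeing the data), ran from 16 to 19 above and 0 to 2 below for Sox9 against Pdx1 heterozygotes, beside 9.57% to 15.5% and 8.51% to 15.5% of all genes. For double against Sox9 heterozygotes they ran from 2 to 4 above and 9 to 19 below, beside 21.1% to 26% and 18.8% to 24.6%. For double against Pdx1 heterozygotes they ran from 6 to 14 above and 1 to 3 below, beside 15.5% to 17.6% and 13.8% to 18%. Smaller groups overlap less by construction. Where a cause is not stated, the cause was not tested.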
